A study of Mus musculus with 38 samples.

Results

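The interstitial collagens are the triple-helical proteins that fibroblasts of the heart secrete into the space between myocytes and vessels, and 10 of their chains are described here: Col1a1, Col1a2, Col3a1, Col5a1, Col5a2, Col5a3, Col6a1, Col6a2, Col6a3 and Col14a1. The rule names them by symbol and uses no measured value, but they were picked with earlier results of these data known. They are 10 of the 35682 genes in the deposited table, and all 10 had an Ensembl identifier there. The rule also named them as a measure of the fibroblast RNA in a library, so their levels were set beside those of 14 fibroblast genes that are not collagens. All 10 passed the filter on low counts in every comparison, and the lowest count of any chain in any of the 38 libraries was 3 (Col14a1).

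The libraries came from male C57BL/6 mice of 8 to 12 weeks, with 2 hearts pooled in each. All mice were dosed orally every day for 6 weeks, with vehicle (5% DMSO in saline) in the Sham and Control-AMI groups and with empagliflozin (EMPA, an inhibitor of the renal sodium-glucose cotransporter SGLT2) at 10 mg/kg/d in the EMPA–Pre-AMI group. The labels name these groups SHAM, Control_IR and EMPA_IR. Sham mice had the chest opened without ligation, whereas both acute myocardial infarction (AMI) groups had 30 min of left anterior descending artery ligation and 2 h of reperfusion. Hearts were digested with collagenase, and from the part below the suture cardiomyocytes were collected by sedimentation at low speed without a sort, endothelial cells (ECs) were sorted as CD45- CD31+ and fibroblasts as CD45- CD31- CD90+. There were 12 fibroblast libraries, 4 per group. The 13 EC libraries were split as 4 Sham, 4 Control-AMI and 5 EMPA–Pre-AMI, and the 13 cardiomyocyte libraries as 4, 5 and 4. With 10 mice per group in the methods and 2 hearts per library, libraries of different populations must share hearts. Which libraries share them is not given, and p-values measure the spread between these pools.

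Collagen chains wind around each other in threes, and the tight helix requires a glycine in each triplet of residues. Type I collagen, made of Col1a1 and Col1a2 chains, and type III collagen, made of Col3a1, form the thick fibrils that carry tension. Type V collagen, made of Col5a1 and Col5a2 with Col5a3 in some molecules, starts and limits those fibrils, type VI collagen (Col6a1, Col6a2, Col6a3) forms beaded filaments around cells, and Col14a1 sits on the fibril surface. In the heart these chains are made mainly by fibroblasts, while ECs chiefly make basement membrane collagens. Because each collagen protein carries long stretches of the same triplet, a reader can see the family in its exons. The following sequences are 1 exon of 54 bases from each of 6 chains. They are shown because the glycine codon that opens each triplet (GGN, in capitals) recurs every 9 bases and marks what the chains share. Glycine codons at other positions of a triplet are left in lower case. Sequences and coordinates are from the GRCm39 genome with a GENCODE annotation, on the coding strand, and all lie in coding sequence.
Col1a1, exon 8, chr11:94830730-94830783, plus strand: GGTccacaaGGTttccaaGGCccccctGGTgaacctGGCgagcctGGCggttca
Col1a2, exon 8, chr6:4515481-4515534, plus strand: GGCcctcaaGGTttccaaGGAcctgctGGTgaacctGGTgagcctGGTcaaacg
Col3a1, exon 6, chr1:45364520-45364573, plus strand: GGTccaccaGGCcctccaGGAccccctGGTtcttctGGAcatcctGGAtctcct
Col5a2, exon 6, chr1:45474052-45474105, minus strand: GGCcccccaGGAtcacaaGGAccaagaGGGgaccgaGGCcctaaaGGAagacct
Col6a1, exon 9, chr10:76555457-76555510, minus strand: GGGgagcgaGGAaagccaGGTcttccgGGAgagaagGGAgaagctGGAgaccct
Col14a1, exon 37, chr15:55331356-55331409, plus strand: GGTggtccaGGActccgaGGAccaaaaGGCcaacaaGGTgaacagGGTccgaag

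The 6 fibril-forming chains (types I, III and V) had between 21 (Col1a1) and 31 (Col5a3) coding exons of exactly 54 bases made of such triplets. The type VI chains had 2 or 3, and Col14a1 had 4. The longest unbroken run of triplets was 337 to 344 in the fibril-forming chains, 87 in Col6a1 and Col6a2, 45 in Col6a3 and 32 in Col14a1. Col3a1 (chr1:45350698-45395840) and Col5a2 (chr1:45412554-45542442) are neighbours on opposite strands of chromosome 1, and Col6a1 and Col6a2 lie close together on chromosome 10. In the 250 bases before the start site, the letters CCAAT or their reverse complement ATTGG were found in 4 of the 10 genes. They were found in 36.5% of the 21751 promoters of protein-coding genes in the GENCODE annotation (GRCm39). TATAAA was found in 2 against 11.9%, and GGGCGG in 6 against 36.3%, on either strand.

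Cardiomyocyte libraries held 2031716 to 4509284 counts, EC libraries 1352514 to 2195308 and fibroblast libraries 1946056 to 2821373. The limit set by a count of 0, taken as 3 counts, was 0.665 to 1.48 CPM in cardiomyocytes, 1.37 to 2.22 CPM for ECs and 1.06 to 1.54 CPM for fibroblasts, and it covers counting error only. Mitochondrially encoded genes took 46.6% to 66.01% of a cardiomyocyte library, 4.52% to 14.6% of an EC library and 3.47% to 12.5% of a fibroblast library. Levels are CPM, the counts relative to the library total, scaled by TMM factors, a correction for differences in composition between libraries. The scale was set over the libraries of one population where groups were compared, and over all 38 libraries where populations were compared. Reads of these libraries come from the 3′ end of each transcript, so a count does not grow with length, and levels of different chains were compared only as ratios between libraries. Each sample has a sheet number and an RNA number, and from these the libraries were divided here into 4 sample-sheet lists. With samples in order of sheet number, a new list was started wherever the RNA number fell. What these inferred lists stand for is not given, and the methods state that libraries were prepared and sequenced at one time. The sorted or sedimented cells carried their own markers, but the cardiomyocyte libraries, which were not sorted, also held RNA of fibroblast and endothelial genes. On the scale of all libraries, Myh6 (cardiac myosin) was at 12676 ± 635 CPM in Sham cardiomyocytes against 116 ± 73.4 in Sham ECs, Pecam1 (CD31) was at 1183 ± 92.9 in Sham ECs against 38.3 ± 33.5 in Sham fibroblasts, and Pdgfra, a fibroblast receptor, was at 292 ± 68.9 in Sham fibroblasts against 11.7 ± 2.65 in Sham ECs (SD, n = 4). Rgs5, a mural cell gene, was at 609 ± 293 CPM in Sham fibroblasts, 398 ± 68.2 in Sham ECs and 526 ± 60.4 in Sham cardiomyocytes. The fibroblast genes that are not collagens summed to 4111 to 6073 CPM in Sham cardiomyocytes. They summed to 553 to 1662 CPM in Sham ECs and 25015 to 34949 CPM in Sham fibroblasts. Without TMM factors the cardiomyocyte and EC ranges overlapped, at 1667 to 3316 and 921 to 2645 CPM. Endothelial genes summed to 1538 to 2139 CPM in Sham cardiomyocytes, against 9190 to 9971 CPM in Sham ECs with TMM factors.

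The first comparison asked how the chains were distributed over the populations of Sham hearts. All 10 chains were higher in fibroblasts than in ECs, by a median of 5.02 on the log2 scale, where 37.7% of the 12085 genes tested differed in either direction and 20.2% were higher (FDR: <0.05, edgeR's quasi-likelihood test with Benjamini-Hochberg adjustment). All 10 were also higher in fibroblasts than in cardiomyocytes, by a median of 2.06, where 22.7% of genes were higher and 47.3% differed. ECs were below cardiomyocytes in 9 of 10 chains, with a median log2 difference of -2.94, where 28.1% of genes were lower and 52.9% differed. The exception was Col5a2, with a log2 difference of -0.40 (SE 0.35, FDR = 0.349). The size of the difference between ECs and cardiomyocytes depends on the scaling. As a percent of Sham fibroblasts, the median chain had a mean of 3.07% in Sham ECs and 24.3% in Sham cardiomyocytes with TMM factors, and of 3.19% and 7.36% without them. A term for the sample-sheet list kept 9 calls with a median of -1.96, and the share of all genes called with it is not given here. Sham ECs were on lists 2 and 3 and Sham cardiomyocytes on list 4, so list and population cannot be told apart among these Sham libraries.

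Among the fibril-forming chains of Sham hearts, Col1a1 was at 841 ± 103 CPM in fibroblasts, 220 ± 30.9 in cardiomyocytes and 23.7 ± 11.7 in ECs (SD, n = 4). Col1a2 was at 1308 ± 524, 247 ± 40.5 and 44.9 ± 15.3 CPM, and Col3a1 at 1036 ± 353, 189 ± 45.2 and 31.2 ± 17.4 CPM, in the same order. For these 3 chains the 4 libraries of each population did not overlap with those of the next. All 10 chains had fibroblast libraries above those of ECs (against 18.5% of genes) and above those of cardiomyocytes (21.5%), and 9 had EC libraries below those of cardiomyocytes (27.9%). Of the type V chains, Col5a1 was at 277 ± 37.1, 61.4 ± 15.2 and 8.52 ± 4.297 CPM and Col5a3 at 380 ± 45.3, 84.6 ± 21.2 and 10.1 ± 5.66 CPM. Col5a2 was at 137 ± 39.2, 27.9 ± 3.47 and 21.1 ± 8.26 CPM, so that cardiomyocytes and ECs were the neighbours whose libraries overlapped. Its difference between fibroblasts and ECs, 2.69 (SE 0.34, FDR = 2.27e-08), was the smallest of the 10, which otherwise ran from 4.52 for Col6a1 to 5.22 for Col5a3. Col14a1 had the smallest difference between fibroblasts and cardiomyocytes, 1.52 (SE 0.44, FDR = 0.00536), with 159 ± 29.2 against 55.7 ± 6.59 CPM. The values of the type VI chains in fibroblasts were 135 ± 41.1 (Col6a1), 401 ± 37.5 (Col6a2) and 317 ± 42.05 CPM (Col6a3), against 5.86 ± 3.62, 12.3 ± 8.04 and 8.64 ± 3.44 CPM in ECs.

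Summed over the 10 chains, the level was 4264 to 6615 CPM in the 12 fibroblast libraries. It was 877 to 1296 CPM in Sham and 719 to 1556 CPM in Control-AMI cardiomyocytes, and 97.8 to 273 CPM in Sham ECs. The chains made up 0.604% to 1.02% of all counts in fibroblasts. The Sham cardiomyocyte level depends on the scaling: without TMM factors the median chain stood at 4.78% to 10.2% of Sham fibroblasts, against 18.3% to 29.02% with them. In bulk libraries fewer cells of a type and less RNA per cell cannot be told apart.

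**Figure D1:**
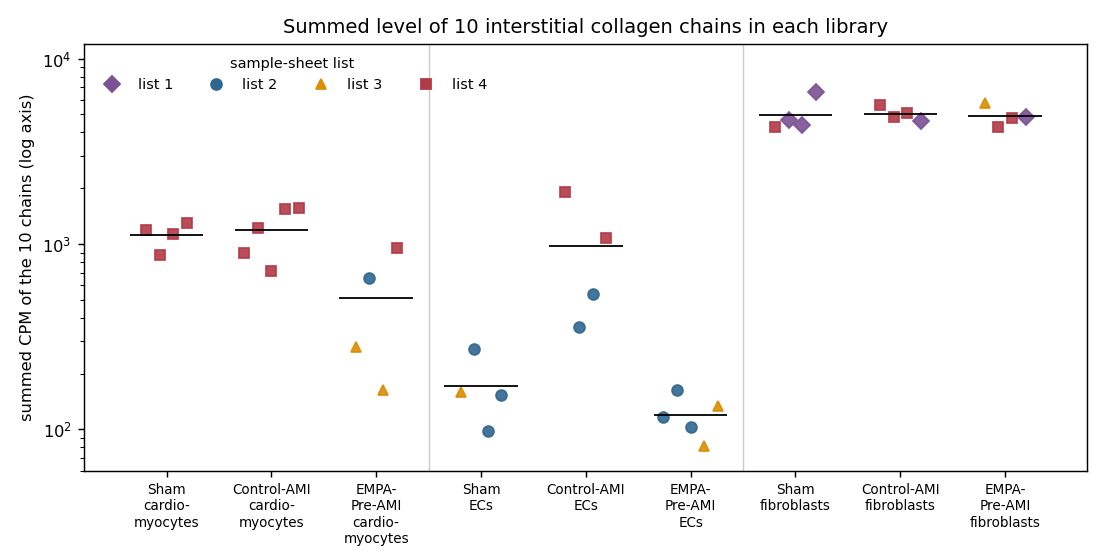
Summed CPM of the 10 chains (log axis, TMM factors over all libraries) for each library, by population and group. Symbols mark the sample-sheet list and lines the group mean, and the 2 EC Control-AMI libraries of list 4, at 1914 and 1075 CPM, stand above all other EC libraries.

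Fibroblasts were the next question, since infarction and EMPA might alter the chains in the cells that make them. None of the 10 chains passed the threshold between Sham and Control-AMI, where 4.16% of the 10691 genes tested did. Between Control-AMI and EMPA–Pre-AMI again 0 chains passed, and so did 0 of all genes (0.0%), with 170 genes and 0 chains at an unadjusted p below 0.05. Between Sham and EMPA–Pre-AMI 0 chains passed, against 5.11% of genes. DESeq2 also called 0 chains in each. The log2 fold changes of the chains lay between -0.29 and 0.27 in all of these comparisons, with standard errors of 0.15 to 0.23. Sham libraries had Col1a1 at 1239.5, 1118, 1159 and 1458 CPM. Control-AMI had it at 1746, 1469, 1428 and 1199.8 CPM, against 1519, 1284, 1194 and 1462 CPM for EMPA–Pre-AMI. The groups overlapped for Col1a1, as they did for all 10 chains in the 3 comparisons, where 12.3%, 1.78% and 11.8% of genes had groups without overlap. Col3a1 was the chain with the lowest fold change after infarction, from 1533 ± 526 in Sham to 1255 ± 138 CPM in Control-AMI (log2 fold change -0.29, SE 0.23, FDR = 0.524). Col14a1 had the highest, from 235 ± 43.4 to 285 ± 96.6 CPM (0.27, SE 0.23, FDR = 0.559). With standard errors of this size, small changes were not detectable.

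Among ECs the chains differed. After infarction 9 of the 10 chains were higher in Control-AMI than in Sham ECs, with a median log2 fold change over all 10 of 2.65 against -0.02 over all genes, where 6.56% of the 10438 genes tested were called and 4.09% were higher (FDR: <0.05). In 8 chains every Control-AMI library lay above every Sham library, against 5.78% of genes. The chains that overlapped were Col5a2 and Col6a1. Control-AMI replicates 1 and 4 were the highest EC libraries for each chain. With a fit of only the 2 groups compared, 2 chains were called at a median of 2.66, and the share of all genes called is not given here.

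Col1a1 in ECs was at 37.2, 62.3, 19.95 and 30.5 CPM in Sham and at 549, 88.7, 158 and 337 CPM in Control-AMI, on the scale of the EC libraries. The log2 fold change was 2.91 (SE 0.61, FDR = 0.0189). Its partner in type I collagen, Col1a2, was at 67.2, 99.4, 42.3 and 76.3 CPM in Sham and at 695, 148, 245 and 334 CPM in Control-AMI (2.32, SE 0.43, FDR = 0.00802). Both groups of libraries stood apart without overlap for each chain of type I collagen. Col3a1 rose from 49.5 ± 26.9 to 290 ± 232 CPM (2.55, SE 0.57, FDR = 0.0250).

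Col5a1 rose from 13.5 ± 6.57 to 76.2 ± 47.5 CPM (2.48, SE 0.49, FDR = 0.00922) and Col5a3 from 15.98 ± 8.87 to 124 ± 95.7 CPM (2.94, SE 0.58, FDR = 0.0112). Col5a2 was different. It was at 18.3, 45.6, 27.7 and 42.3 CPM in Sham and at 71.7, 33.3, 41.4 and 54.2 CPM in Control-AMI, with a log2 fold change of 0.59 (SE 0.30, FDR = 0.286). The Sham and Control-AMI libraries overlapped for it, and it was the only chain of the 10 that was not called. Among the type VI chains, Col6a2 (2.91, SE 0.63, FDR = 0.0210) and Col6a3 (2.76, SE 0.49, FDR = 0.00518) rose, as did Col6a1 (1.87, SE 0.50, FDR = 0.0308). Col14a1 was at 10.0, 9.98, 4.38 and 4.16 CPM in Sham and 132, 20.4, 22.7 and 64.1 CPM in Control-AMI, the largest fold change of the 10 (3.05, SE 0.68, FDR = 0.0196).

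EMPA–Pre-AMI ECs were compared with Control-AMI ECs to ask whether the drug changed this. All 10 chains were lower in EMPA–Pre-AMI, with a median log2 fold change of -3.18 against 0.02 over all genes, where 2.63% of genes were called and 2.28% were lower. All 10 had every EMPA–Pre-AMI library below every Control-AMI library, against 2.84% of genes. This comparison and the previous one share the Control-AMI libraries. Col1a1 was at 21.5, 45.96, 26.6, 12.4 and 44.3 CPM in EMPA–Pre-AMI (log2 fold change -3.23, SE 0.58, FDR = 0.0148), and Col1a2 at 52.8, 63.8, 40.1, 43.9 and 55.7 CPM (-2.80, SE 0.40, FDR = 0.00489). These values lay inside the range of Sham except for Col1a1 in replicate 4 and Col1a2 in replicate 3, which lay below it. Col5a3 had the largest fold change, with 10.9 ± 2.11 CPM in EMPA–Pre-AMI (-3.50, SE 0.55, FDR = 0.00686), and Col5a2 the smallest, with 18.95 ± 7.12 CPM (-1.40, SE 0.29, FDR = 0.0107). Col6a1 was at 8.15 ± 2.47 CPM (-2.05, SE 0.47, FDR = 0.0218) and Col14a1 at 5.83 ± 4.52 CPM (-3.34, SE 0.64, FDR = 0.0159). Against Sham, EMPA–Pre-AMI ECs had 0 chains called by edgeR and 0 by DESeq2, where edgeR called 2.71% of genes. The fold changes were -0.94 to -0.18, and 1 chain (Col5a2) had an unadjusted edgeR p below 0.05, as did 1475 of the 10438 genes. All 10 chains overlapped there, while 6.56% of genes did not.

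**Figure D2:**
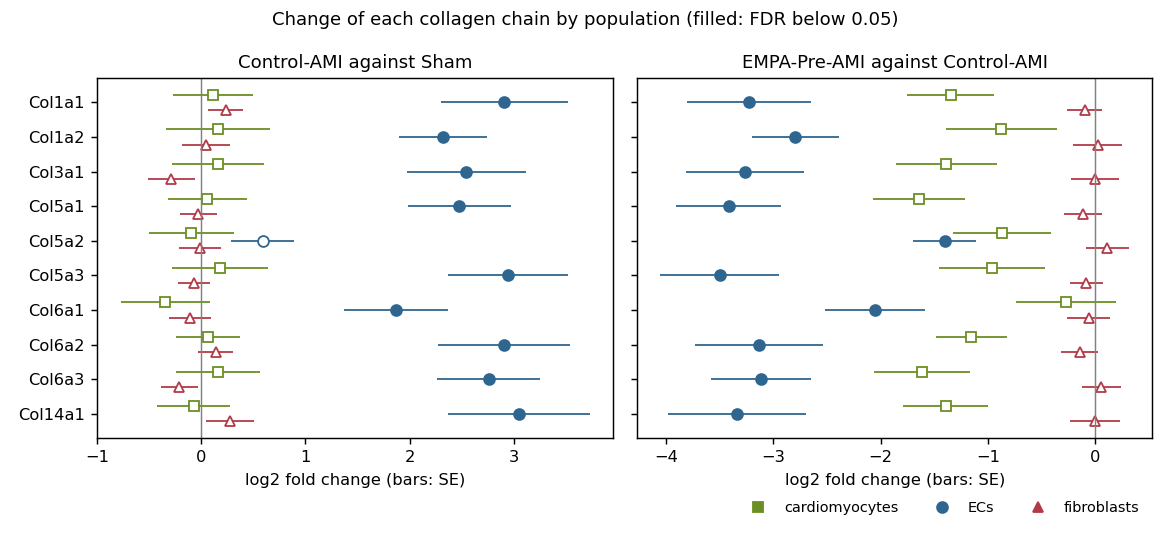
Log2 fold change of each chain (points, with bars for its standard error) for Control-AMI against Sham on the left and EMPA–Pre-AMI against Control-AMI on the right, in cardiomyocytes (squares), ECs (circles) and fibroblasts (triangles). Filled points have an FDR below 0.05: 9 and 10 of the EC chains and 0 of the others.

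The sample-sheet lists moved with these EC results. Control-AMI replicates 1 and 4 were on list 4, which held no other EC library, and their summed levels on the scale of all libraries were 1914 and 1075 CPM. Control-AMI replicates 2 and 3 were on list 2, with 357 and 538 CPM, while the Sham libraries of list 2 were at 97.8 to 273 CPM and the EMPA–Pre-AMI libraries of list 2 at 103 to 163 CPM. Within list 2 the order of the groups was therefore the same, with the Control-AMI libraries above all others. Fewer chains were called there: 2 of 10 between Control-AMI and Sham (median log2 fold change 1.44) and 0 between EMPA–Pre-AMI and Control-AMI (median -1.89). With a term for the list, 2 and 1 chains were called, and without both list 4 libraries, an alternative chosen after seeing the data, 3 and 5 were. Without Sham replicate 3 or Sham replicate 4 the first count was 4. The second count was 6 when EMPA–Pre-AMI replicate 1 was left out. These fits had fewer libraries or an added term, and the share of all genes called in them is not given here. A fall in the count is therefore not a result about the chains alone.

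Whether ECs and fibroblasts differed in these responses was tested directly. The Control-AMI effect was larger in ECs than in fibroblasts for 8 of 10 chains, all except Col5a2 (FDR = 0.670) and Col6a1 (FDR = 0.0627), with a median difference of 2.73 on the log2 scale, where 3.22% of the 12085 genes were called and 2.47% were higher. The difference between EMPA–Pre-AMI and Control-AMI was more negative in ECs for the same 8 of 10, with Col5a2 (FDR = 0.0659) and Col6a1 (FDR = 0.0657) again short of the threshold and a median of -3.17, where 2.04% of genes were called and 2.01% were lower. Without both EC Control-AMI libraries of list 4, 0 chains were called in either test, and the medians were 1.44 and -1.95. Without Control-AMI EC replicate 1 alone the first count was 4, and with a term for the list it was 3. For these alternative fits the share of all genes called is not given here. The fit treats libraries of different populations as independent, although they share hearts.

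Other fibroblast genes moved with the chains in the same EC libraries. The 14 fibroblast genes that are not collagens (among them Dcn, Lum, Pdgfra and Gsn) summed to 553 to 1662 CPM in Sham ECs, to 9768, 2282, 2796 and 5426 CPM in Control-AMI replicates 1 to 4, and to 556 to 1016 CPM in EMPA–Pre-AMI. Of the 13 tested, 10 were higher in Control-AMI than in Sham, where 4.09% of all genes were higher and 6.56% were called. In EMPA–Pre-AMI 12 were lower than in Control-AMI, where 2.28% of all genes were lower and 2.63% were called. In both comparisons 0 went in the other direction. None of the 14 was at 0 in all EC libraries. The 10 endothelial genes summed to 9190 to 9971 CPM in Sham, 4821 to 6544 in Control-AMI and 6601 to 9407 in EMPA–Pre-AMI. Of these, 3 of 10 were lower in Control-AMI than in Sham, where 6.56% of all genes were called in either direction. In EMPA–Pre-AMI against Control-AMI, 2 of 10 were higher and 0 lower, where 2.63% of all genes were called in either direction. Mural genes had 0 of 10 called in either comparison (261 to 608 CPM in Control-AMI against 420 to 680 in Sham). Leukocyte genes had 0 of 5 called, although all 5 had a positive fold change in Control-AMI against Sham, with a median log2 value of 4.09. Control-AMI replicate 3 reached 551 CPM of leukocyte genes against 5.52 to 28.1 in Sham. Of 9 cardiomyocyte genes tested, 0 were called in Control-AMI against Sham. In EMPA–Pre-AMI against Control-AMI 1 was lower and 0 had a positive fold change (median -1.06). The part of these in the collagen result was not tested.

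The log2 ratio of the summed chains to the summed fibroblast genes, which does not depend on depth or scaling, was -2.34 to -2.78 over the 13 EC libraries while the summed chains themselves ran from 81.1 to 1914 CPM. In the 12 fibroblast libraries the ratio was -2.11 to -2.59, and in the 13 cardiomyocyte libraries -2.09 to -2.97. The lowest of these was EMPA–Pre-AMI cardiomyocyte replicate 2.

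**Figure D3:**
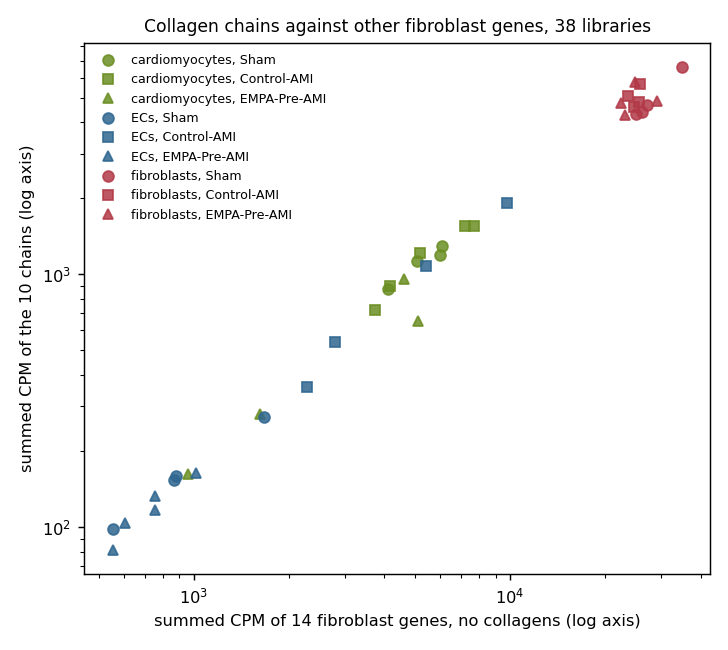
Summed CPM of the 10 chains against the summed CPM of 14 fibroblast genes that are not collagens, for all 38 libraries (both axes log, TMM factors over all libraries), with colour for the population and symbol for the group. The libraries lie along one band, with log2 ratios of -2.97 to -2.09.

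In cardiomyocytes the chains did not pass the threshold in any comparison. Between Sham and Control-AMI 0 chains were called by edgeR and 0 had an unadjusted p below 0.05, where 0.0655% of the 9167 genes tested were called, and the fold changes ran from -0.35 (Col6a1) to 0.18 (Col5a3). Between Control-AMI and EMPA–Pre-AMI 0 chains were called by edgeR and 6 by DESeq2, where edgeR called 0.0218% of genes. The share of all genes that DESeq2 called is not given here, so its count has no background. At an unadjusted edgeR p below 0.05 there were 6 chains, and 2295 of the 9167 genes. The fold changes were negative in all 10, with a median of -1.25, from -0.27 (Col6a1) to -1.64 (Col5a1, SE 0.43, FDR = 0.0574). At an FDR below 0.1 there were 5 chains, Col1a1, Col5a1, Col6a2, Col6a3 and Col14a1, and 982 of the 9167 genes. Against Sham 0 chains were called by edgeR, with a median of -1.16, where edgeR called 0.338% of genes, and 3 by DESeq2, whose share is again not given. There 6 chains had an unadjusted edgeR p below 0.05, as did 1672 of the 9167 genes. The libraries of Col3a1 and Col14a1 lay below Sham without overlap, 2 of 10 chains against 4.44% of genes, and 0 chains were without overlap in the other comparisons (2.47% and 5.97% of genes).

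The EMPA–Pre-AMI cardiomyocyte libraries differed among themselves. Col1a1 was at 22.1, 45.4, 13.02 and 83.7 CPM in EMPA–Pre-AMI, at 66.4, 101, 80.1, 130 and 145 CPM in Control-AMI and at 93.2, 79.4, 107 and 107 CPM in Sham, on the scale of the cardiomyocyte libraries. Replicate 4 lay inside the range of both other groups, and replicates 1 to 3 lay below them. Replicate 4 was also the only EMPA–Pre-AMI library on list 4, where all Sham and Control-AMI cardiomyocyte libraries were, while replicates 1 and 3 were on list 3 and replicate 2 on list 2. Without replicate 4, 6 chains were called against Control-AMI and 5 against Sham. How many of all genes were called without it is not given here, so these counts have no background. With a term for the list, 0 were called and the median was -0.28, so the list and EMPA cannot be told apart for the other libraries. The fibroblast genes summed to 1622, 5125, 959 and 4615 CPM in EMPA–Pre-AMI replicates 1 to 4, against 4111 to 6073 in Sham and 3749 to 7708 in Control-AMI. Cardiomyocyte genes summed to 68339 to 118981 CPM in EMPA–Pre-AMI and 52445 to 118429 CPM in Control-AMI.

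To compare proportions between populations, the levels were expressed chain by chain as a percent of the mean of Sham fibroblasts, as a description without a test. The median chain of ECs in Sham was at 1.61% to 5.10%. It was at 37.2%, 6.95%, 10.9% and 22.999% in Control-AMI replicates 1 to 4, and at 1.39% to 3.19% in EMPA–Pre-AMI. In Control-AMI replicate 1 the 10 chains ran from 29.7% (Col6a1) to 53.0% (Col14a1), and in Control-AMI replicate 3 the chains without Col5a2 ran from 8.19% to 12.0%. Col5a2 was the highest chain in 11 of 13 EC libraries, the exceptions being Control-AMI replicates 1 and 4. It was at 8.26%, 21.4%, 12.8% and 19.4% in the Sham libraries, where the other chains reached at most 7.66%, and at 6.49% to 14.4% in EMPA–Pre-AMI, where the others reached at most 5.33%.

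**Figure D4:**
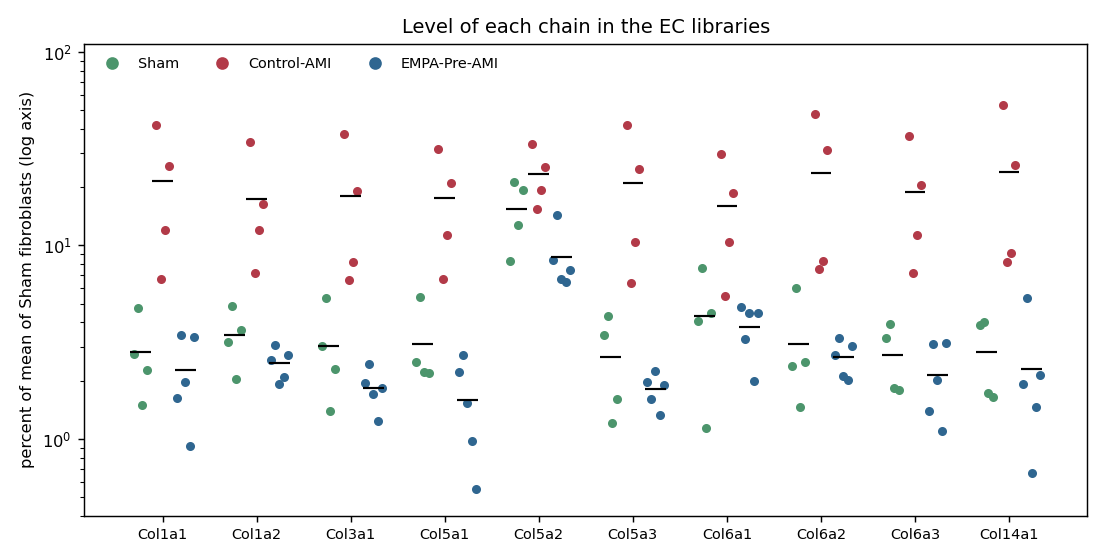
Level of each chain in the 13 EC libraries as a percent of its mean in Sham fibroblasts (log axis), with points for libraries, colours for the groups and lines for the group means. Col5a2 lies at 6.49% to 21.4% in Sham and EMPA–Pre-AMI libraries, above the other chains.

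In cardiomyocytes the median chain was at 18.3% to 29.02% in Sham, 15.6% to 33.9% in Control-AMI, and 5.72%, 11.5%, 3.37% and 22.2% in EMPA–Pre-AMI replicates 1 to 4. Here Col14a1 was the highest chain in 10 of 13 libraries, and Col5a2 was not the highest in any. EMPA–Pre-AMI replicate 2 had the widest range, from 2.96% for Col6a3 to 28.6% for Col6a1. Col1a2 was low in Control-AMI replicate 3, at 6.41%.

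Ratios between chains of one molecule or of neighbouring molecules were then taken within each library, which removes depth and scaling. In all, 6 ratios were compared over 12 contrasts, giving 72 permutation tests with Benjamini-Hochberg adjustment over all of them, and 2 had an adjusted p below 0.05. Both were the ratio of Col5a1 to Col5a2. Its log2 value was 0.93 ± 0.28 in the fibroblast libraries (SD, n = 12), 1.00 ± 0.67 in cardiomyocytes (n = 13) and -0.86 ± 1.05 in ECs (n = 13). The difference between fibroblasts and ECs had a permutation p of 2e-05, the smallest that 100000 resamples can give (adjusted p = 0.00144), and that between ECs and cardiomyocytes a permutation p of 0.00014 (adjusted p = 0.00504). The groups of libraries overlapped in both, since 2 EC Control-AMI libraries reached the values of fibroblasts and of cardiomyocytes, and EMPA–Pre-AMI cardiomyocyte replicate 2, at -1.04, lay inside the EC range. By list, the EC ratio was 0.74 and 0.92 on list 4, -2.08 to 0.23 on list 2 and -2.61 to -0.69 on list 3, and the fibroblast ratio was 0.56 to 1.36 on list 1, 0.97 on list 3 and 0.70 to 1.28 on list 4. The cardiomyocyte ratio was 0.72 to 1.58 on list 4, 1.05 and 1.06 on list 3 and -1.04 in the 1 library on list 2. On list 4 the EC libraries were all Control-AMI, so group and list cannot be told apart there.

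Within ECs the ratio of Col5a1 to Col5a2 was 0.43 ± 0.50 in Control-AMI (SD, n = 4), -1.31 ± 0.61 in Sham (n = 4) and -1.52 ± 0.67 in EMPA–Pre-AMI (n = 5). Control-AMI did not overlap with Sham (exact permutation p = 0.0286, the smallest that 4 against 4 can give here, adjusted p = 0.229). It did not overlap with EMPA–Pre-AMI either (exact permutation p = 0.0159, the smallest that 5 against 4 can give here, adjusted p = 0.190). Neither passed after adjustment, nor did any of the 54 tests within populations, of which 7 had an unadjusted p below 0.05. Besides these, the tests among the 7 were all of type VI chains, in ECs and in cardiomyocytes. Col6a3 over Col6a1 did not overlap between EMPA–Pre-AMI and Control-AMI either, with log2 differences of -1.11 in ECs and -1.49 in cardiomyocytes. Both had an exact permutation p of 0.0159 (adjusted p = 0.190). In cardiomyocytes, Control-AMI against Sham gave 0.57 for it and -0.46 for Col6a1 over Col6a2, with overlap (exact permutation p = 0.0317 for each). Col6a1 over Col6a2 for EMPA–Pre-AMI against Control-AMI ECs was 0.89, with overlap (exact permutation p = 0.0476). The smallest p-values that groups of 4 or 5 can give pass an adjustment over 72 tests only if many tests are as small. The adjusted values within populations therefore cannot show that the ratios were alike. The ratio of Col1a1 to Col1a2, the chains of type I collagen, was -0.53 ± 0.26 in fibroblasts, -0.78 ± 0.49 in ECs and -0.29 ± 0.57 in cardiomyocytes, and no comparison of it passed after adjustment. The ratio of Col3a1 to Col1a1 was -0.04 ± 0.34, 0.16 ± 0.36 and -0.22 ± 0.31 in the same order. Col6a3 over Col6a1 was 1.203 ± 0.192 in fibroblasts, 0.80 ± 0.74 in ECs and 1.117 ± 1.008 in cardiomyocytes. Col6a1 over Col6a2 was -1.71 ± 0.31, -1.35 ± 0.61 and -1.83 ± 0.54 in the same order. Col14a1 over Col1a1 was -2.37 ± 0.27 in fibroblasts, -2.38 ± 0.59 in ECs and -2.12 ± 0.32 in cardiomyocytes.

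**Figure D5:**
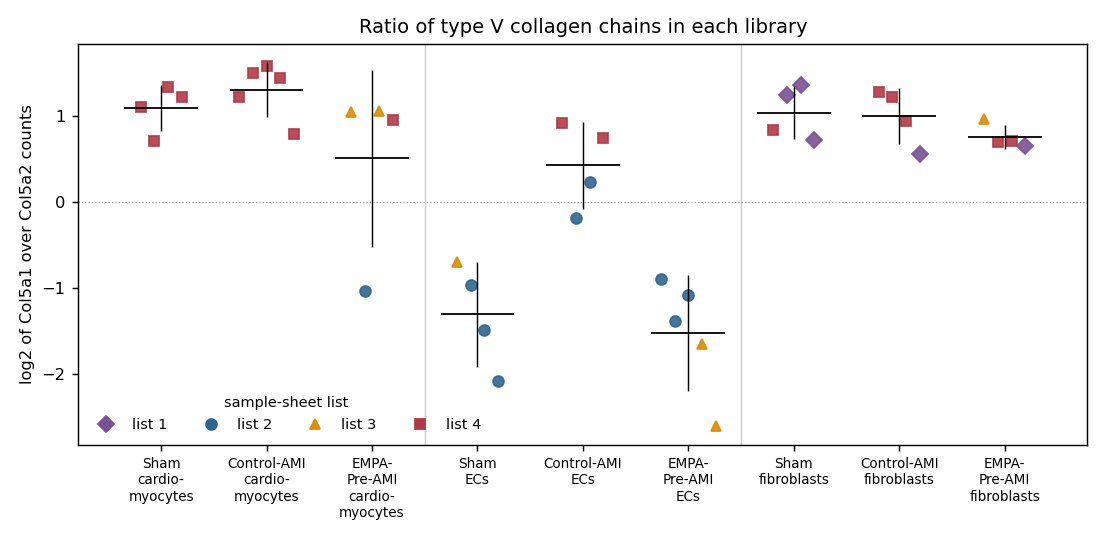
Log2 ratio of Col5a1 to Col5a2 counts (0.5 added to each) in every library, with symbols for the sample-sheet list and lines for the group mean and SD. Sham and EMPA–Pre-AMI ECs lie below 0, and the Control-AMI ECs of list 4 lie at 0.74 and 0.92.

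Genes of the collagen pathway were followed by role, and their counts are to be read against the 4.09% of all genes that were higher and the 6.56% called in Control-AMI against Sham ECs. In ECs after infarction, 4 of 18 tested genes of chain assembly and secretion were higher, led by Pcolce2 (2.96, SE 0.63, FDR = 0.0191), a relative of the enhancer that helps trim procollagen ends. With it rose Adamts2, the protease that removes the amino propeptide (2.63, SE 0.44, FDR = 0.00300), and Pcolce, the enhancer itself (2.29, SE 0.49, FDR = 0.0178). Of the cross-linking enzymes 1 of 3 was higher, Loxl1 (3.13, SE 0.70, FDR = 0.0238). Fibril partners had 5 of 11 higher, led by the matrix glycoproteins Fbln1 (2.77) and Mfap5 (2.503) and the small proteoglycan Ogn (2.64). Receptors had 3 of 7 higher, among them the collagen receptor kinases Ddr2 (2.65, FDR = 0.0126) and Ddr1 (1.32, FDR = 0.0213). Breakdown genes had 5 of 8 higher, with the protease inhibitor Timp1 (3.35, FDR = 0.00504) ahead of the gelatinase Mmp2 (2.89, FDR = 0.0213). Of 11 other collagens tested 2 were higher, Col8a1 (1.31) and Col15a1 (1.16), and of 13 regulators 1 was higher (Smad3, 1.30) and 1 lower (Smad7, an inhibitor of TGF-beta signalling, -0.72).

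EMPA–Pre-AMI ECs had 4 of 18 assembly genes lower than Control-AMI, 2 of 3 cross-linking genes, 6 of 11 fibril partners, 4 of 7 receptors, 3 of 8 breakdown genes, 2 of 11 other collagens and 1 of 13 regulators, with 0 higher in each list, where 2.28% of all genes were lower. Pcolce2 (-3.62, SE 0.61, FDR = 0.0107), Ogn (-3.38), Mmp2 (-3.34) and Loxl1 (-3.32) fell most. These lists overlap in part with the fibroblast genes, and they were drawn up with earlier results of these data known.

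In fibroblasts the 10 chains did not pass the threshold between Sham and Control-AMI, where 4.16% of all genes did, while 2 of 17 other collagens were higher, Col4a1 (0.80, SE 0.17, FDR = 0.0144) and Col4a2 (0.79, SE 0.14, FDR = 0.00469), the chains of the basement membrane network. Lox, the lysyl oxidase that cross-links fibrils, was the 1 of 5 cross-linking genes called (1.08, SE 0.27, FDR = 0.0306), and Timp3 the 1 of 9 breakdown genes (0.82, SE 0.16, FDR = 0.00929). Among 19 assembly genes, 16 fibril partners, 9 receptors and 13 regulators tested, edgeR called 0 there. Between Sham and EMPA–Pre-AMI fibroblasts, where 5.11% of all genes were called, Col4a1 (0.72) and Col4a2 (0.65) were again the 2 of 17 other collagens that were higher and Timp3 (0.94) the 1 of 9 breakdown genes. Of the 16 fibril partners, Postn (0.82), a matricellular protein, was higher and the proteoglycan Prelp (-0.60) lower there. In cardiomyocytes the sole gene of these lists called was Ccn2, a regulator (1.97, SE 0.38, FDR = 0.0214), between Sham and EMPA–Pre-AMI.

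Finally, the genes whose level over libraries was most like the mean log2 CPM of the 10 chains were taken within each population, as a description. In ECs (n = 13) they were Abca8a (Pearson r = 0.992), Gsn (0.991), Sox9 (0.990), Axl (0.986) and Dcn (0.984). In cardiomyocytes (n = 13) they were Ccdc80 (0.992), Pcsk6 (0.991), Nav1 (0.988), Scn7a (0.986) and Lamb1 (0.982). In fibroblasts (n = 12), where the chains varied little, the highest were Septin2 (0.915), Igfbp4 (0.900), Sp1 (0.865), Agfg1 (0.855) and Api5 (0.851). Libraries share depth, list and group in these values. Each chain against the mean of the other 9 had r of 0.814 (Col5a2) to 0.996 (Col3a1) in ECs, 0.847 (Col6a1) to 0.984 (Col1a1) in cardiomyocytes and -0.28 (Col5a3) to 0.83 (Col1a2) in fibroblasts.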

How the data were processed

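Gene expression was measured by 3′ RNA sequencing (QuantSeq) in 38 libraries of cardiomyocytes, ECs and fibroblasts. The authors trimmed reads with cutadapt (version 2.8 per the submitters' processing notes), quantified them with Salmon against GRCm39 and deposited a table of estimated counts per gene, of which 4.55% of values were not whole. Salmon's handling of reads shared between genes can affect the counts. Counts were rounded here. Each population was fitted with all 3 groups in edgeR 4.0.16 (R 4.3.3) with filterByExpr (minimum count 10), TMM factors, glmQLFit with robust estimation and Benjamini-Hochberg adjustment, and a call was an FDR below 0.05. Comparisons between populations used 1 fit of all 38 libraries. Ratios between chains were compared by two-sided permutation tests in scipy 1.17.1, with 0.5 added to each count. The fitting code was tested on simulated data. Groups were taken from the labels. Same-numbered libraries were not paired, because only 13 of 36 pairs of the same number had a correlation of deviations over 0.1 (range -0.11 to 0.48).

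Named genes were the 10 chains, checks of each population (Dcn, Lum, Pdgfra, Pecam1, Cdh5, Myh6, Tnnt2, Rgs5), the 5 genes most like the chains in each population and up to 3 called genes with the largest change in each list. The members and lists were chosen with earlier results of these data known. Alternatives were DESeq2 1.42.0, other factors and filters, a term for the sample-sheet list, a replicate block and each library left out. Of the marker lists, mesothelial genes had 2 of 3 tested higher in Control-AMI than in Sham ECs and Schwann cell genes 0 of 1, where 4.09% of all genes were higher.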

Additional observations from a re-analysis of the deposited data

Results flagged for a closer look

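For 8 chains the response of ECs differed from that of fibroblasts in a test of the difference itself (edgeR's quasi-likelihood test with Benjamini-Hochberg adjustment). The Control-AMI against Sham effect in ECs exceeded that in fibroblasts by 2.69 for Col1a1 (FDR = 0.0114), 2.29 for Col1a2 (FDR = 0.0274) and 2.84 for Col3a1 (FDR = 0.0106) on the log2 scale. For the type V chains the difference was 2.52 for Col5a1 (FDR = 0.00980) and 3.03 for Col5a3 (FDR = 0.00552). For the type VI chains it was 2.78 for Col6a2 (FDR = 0.00624) and 2.98 for Col6a3 (FDR = 0.00371), and for Col14a1 it was 2.79 (FDR = 0.0157). The EMPA–Pre-AMI against Control-AMI effect was lower in ECs than in fibroblasts for the same 8, and the difference was -3.15 for Col1a1, -2.84 for Col1a2, -3.28 for Col3a1, -3.32 for Col5a1, -3.44 for Col5a3, -3.01 for Col6a2, -3.19 for Col6a3 and -3.36 for Col14a1. The FDR of these ran from 0.00110 (Col5a1) to 0.00422 (Col1a2). Without both EC Control-AMI libraries of list 4, 0 of 10 chains were called in either test (medians 1.44 and -1.95). For the Control-AMI effect, 3 were called with a term for the list and 4 without Control-AMI EC replicate 1. No share of all genes is given here for these alternative fits.

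In 5 of 90 groups of 4 or 5 libraries, 1 library stood far from the others, where chance gives about 1 in 20. Col5a1 was at 23.3 CPM in Sham EC replicate 2, and Col5a2 at 31.4 CPM in EMPA–Pre-AMI EC replicate 2. In fibroblasts of EMPA–Pre-AMI, Col5a3 was at 599.7 CPM in replicate 3 and Col6a1 at 222 CPM in replicate 1. In cardiomyocytes Col6a3 was at 33.1 CPM in EMPA–Pre-AMI replicate 4, the library of list 4. Each was the highest of its group, on the scale of its population.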

How the results depend on the processing

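Between Sham and Control-AMI ECs the 9 calls became 5 where at least 10 counts were required in every library (6 chains left to test), 5 with a replicate block (median log2 fold change 2.58), 2 with only the 2 groups compared (2.66, against 2.65), 2 with a term for the list (1.37), 2 with list 2 alone and 3 without both Control-AMI libraries of list 4 (chosen after seeing the data). Between EMPA–Pre-AMI and Control-AMI ECs the 10 calls became 6 with the stricter filter (6 left), 6 with a replicate block (-3.14, against -3.18), 1 with the list term (-1.91), 0 with list 2 alone and 5 without both libraries. The difference between ECs and fibroblasts went from 8 calls to 5 with the stricter filter (5 left) for both contrasts and to 0 without both libraries, and to 3 with the list term for the Control-AMI effect. The cause was not tested, apart from the smaller number of chains left by the filter. For the alternatives other than the FDR below 0.1, the share of all genes called is not given here. A changed count is therefore not a result about the chains alone. The 3 comparisons between Sham populations each had 5 calls with that filter, out of 5 left. In cardiomyocytes, EMPA–Pre-AMI against Control-AMI went from 0 calls to 1 without a filter, 1 with the stricter filter and 6 with DESeq2. At an FDR below 0.1 the count was 5, where 982 of 9167 genes passed. Against Sham the 0 calls became 3 with DESeq2 and 2 with a replicate block. The replicate block changed no other count by over 1.5 times. Leaving out 1 library gave 4 to 9 calls for Control-AMI against Sham ECs (4 without Sham replicate 3 or 4), 6 to 10 for EMPA–Pre-AMI against Control-AMI ECs (6 without EMPA–Pre-AMI replicate 1), 4 to 9 and 8 to 10 for the differences between ECs and fibroblasts (4 without Control-AMI EC replicate 1), 0 to 6 and 0 to 5 for EMPA–Pre-AMI cardiomyocytes against Control-AMI and Sham (the highest without EMPA–Pre-AMI replicate 4), and 2 to 3 ratios.

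Without TMM factors the log2 ratio of the summed level in Sham fibroblasts over cardiomyocytes was 3.88 against 2.15, and the level of the median chain was 7.36% of fibroblasts in Sham and 7.86% in Control-AMI cardiomyocytes, against 24.3% and 24.6%. With medians in place of means 1 ratio differed, against 2. Depth limited ECs, where Col6a1, Col5a1 and Col14a1 had counts as low as 5, 4 and 3 in a library, and cardiomyocytes, where Col5a2 and Col6a1 had counts as low as 5 and 7. A minimum of 10 counts in every library left 6 chains in ECs and 5 in cardiomyocytes.

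Some fold changes of chains that were not called changed sign. With a replicate block the log2 values were Col1a1 -0.12, Col1a2 -0.22, Col3a1 -0.18, Col5a1 -0.070 and Col6a2 -0.094 (cardiomyocytes, Control-AMI against Sham), Col5a2 0.0062 (fibroblasts, Control-AMI against Sham) and Col14a1 0.021 (fibroblasts, EMPA–Pre-AMI against Control-AMI). With a term for the list they were Col6a1 0.41 (cardiomyocytes, EMPA–Pre-AMI against Control-AMI), Col6a1 0.067 (cardiomyocytes, EMPA–Pre-AMI against Sham), Col5a1 0.057, Col5a2 0.12, Col6a1 0.019 and Col6a2 -0.036 (fibroblasts, Control-AMI against Sham), Col1a2 -0.11, Col6a3 -0.093 and Col14a1 0.058 (fibroblasts, EMPA–Pre-AMI against Control-AMI) and Col1a2 -0.047 (fibroblasts, EMPA–Pre-AMI against Sham). With list 4 alone they were Col6a1 0.43 (cardiomyocytes, EMPA–Pre-AMI against Control-AMI) and Col6a1 0.076 (cardiomyocytes, EMPA–Pre-AMI against Sham), and with list 2 alone Col5a2 -0.038 (ECs, Control-AMI against Sham). Without a filter they were Col5a2 0.00070 (fibroblasts, Control-AMI against Sham), Col14a1 0.0016 (fibroblasts, EMPA–Pre-AMI against Control-AMI) and Col6a2 0.0078 (fibroblasts, EMPA–Pre-AMI against Sham). Where 10 counts were required in every library it was Col14a1 0.0032 (fibroblasts, EMPA–Pre-AMI against Control-AMI), and with only the 2 groups compared it was Col14a1 0.00041 (fibroblasts, EMPA–Pre-AMI against Control-AMI).

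Leaving out each library in turn changed the sign of these fold changes of chains that were not called, with these lowest and highest log2 values. In cardiomyocytes, Control-AMI against Sham, the chains were Col1a1 (-0.047 to 0.24), Col3a1 (-0.011 to 0.34), Col5a1 (-0.16 to 0.19), Col5a2 (-0.31 to 0.071), Col5a3 (-0.015 to 0.34), Col6a2 (-0.054 to 0.15) and Col14a1 (-0.23 to 0.053). In cardiomyocytes, EMPA–Pre-AMI against Control-AMI, the chains were Col6a1 (-0.68 to 0.11). In ECs, EMPA–Pre-AMI against Sham, the chains were Col1a1 (-0.54 to 0.046), Col6a1 (-0.52 to 0.25) and Col6a2 (-0.48 to 0.32). In fibroblasts, Control-AMI against Sham, the chains were Col1a2 (-0.10 to 0.36), Col5a1 (-0.11 to 0.051), Col5a2 (-0.11 to 0.20) and Col6a1 (-0.22 to 0.12). In fibroblasts, EMPA–Pre-AMI against Control-AMI, the chains were Col1a2 (-0.13 to 0.095), Col3a1 (-0.11 to 0.12), Col6a3 (-0.087 to 0.18) and Col14a1 (-0.22 to 0.14). In fibroblasts, EMPA–Pre-AMI against Sham, the chains were Col1a2 (-0.076 to 0.38), Col6a1 (-0.29 to 0.059) and Col6a2 (-0.077 to 0.083).

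Same-numbered libraries were not treated as pairs, and the replicate block values above are given for comparison only.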
